A study of Mus musculus with 12 samples.

Results

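Uteri in metestrus were compared with uteri in proestrus: 3 uterine samples labelled metestrus and 3 labelled proestrus, 6 of the 12 in the series, chosen by the estrous cycle stage label alone. All came from wild-type female Swiss Webster mice, an outbred stock, aged 8 to 12 weeks, and the labels name no treatment. Metestrus libraries carry the numbers 5, 6 and 7 and proestrus libraries the numbers 1, 2 and 3, and values are given below in that order. The labels do not say how a stage was determined, and they number no animals, so p-values measure only the spread between these samples. The other 6 samples, 3 in estrus and 3 in diestrus from the same stock, sex, age range and genotype, entered the model to share its estimate of the spread, and their levels stand beside some results without a test. Each sample was the RNA of a whole uterus, read by 3' TagSeq, a method whose reads come from the tail end of polyadenylated transcripts. In such bulk tissue, fewer cells of a type and less RNA per cell cannot be told apart.

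The mouse uterus is built of a luminal epithelium with glands, a stroma, called the endometrial stroma, and the smooth muscle of the myometrium. Through proestrus, ovarian estradiol rises and drives growth of the epithelium and the filling of the lumen with fluid. Metestrus follows ovulation, when estradiol has fallen, corpora lutea form in the ovary and begin to make progesterone, and leukocytes and proteases take part in regression of the tissue. Many estrogen-induced genes act in the epithelium, whereas several progesterone-induced genes pass signals from epithelium to stroma.

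In metestrus, 300 genes were higher and 219 were lower than in proestrus, 519 of the 12052 genes tested (4.31%) by edgeR's quasi-likelihood test at a Benjamini-Hochberg adjusted p under 0.05. The higher genes were 2.49% and the lower genes 1.82% of all those tested, and 2535 genes had an unadjusted p under 0.05. At least a 2-fold difference was fitted for 198 of the higher and 131 of the lower genes. The median log2 fold change, metestrus minus proestrus, was 0.016 over all genes tested. Levels are in CPM, counts scaled by library size, and the total per library ran from 1652841 to 1988566 estimated counts over these 6 samples. Of the 519 genes, 517 were protein-coding and 510 had metestrus and proestrus values that did not overlap. Over all tested genes, 11.5% had every metestrus value above every proestrus value and 11.8% had every one below. Counts in the gene lists below are to be read beside these shares and those of the genes called.

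**Figure D1:**
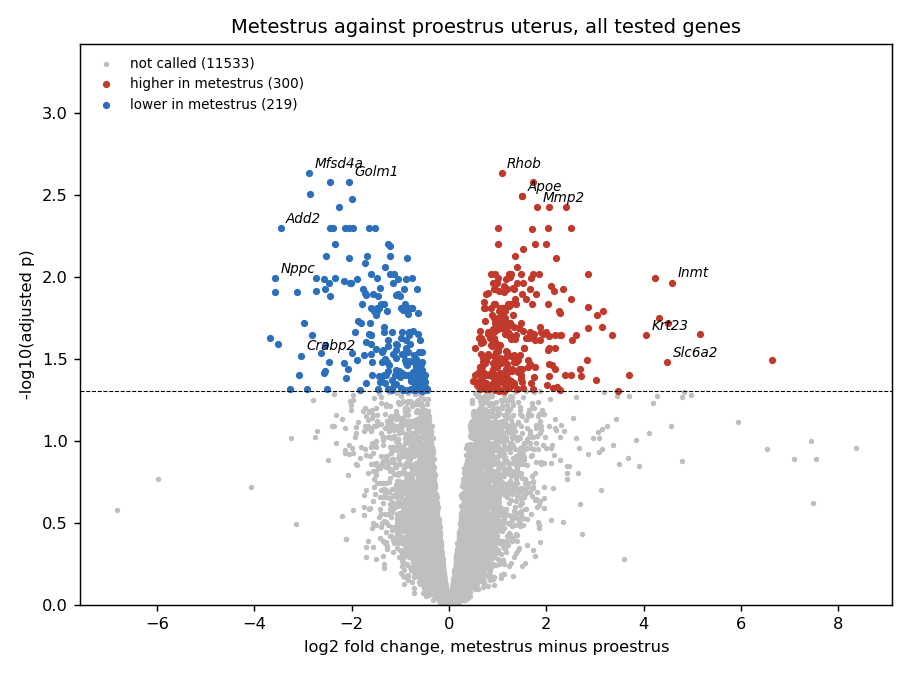
Each point is 1 of the 12052 tested genes, with the log2 fold change (metestrus minus proestrus) on the horizontal axis and -log10 of the edgeR adjusted p on the vertical axis. The dashed line is an adjusted p of 0.05. The 300 genes higher in metestrus are red and the 219 lower genes blue.

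The 3 metestrus libraries differed from each other more than the 3 proestrus libraries did. Pearson correlations of log2 CPM over all tested genes were 0.897 to 0.91 between metestrus libraries and 0.953 to 0.957 between proestrus libraries. Each metestrus library had a higher correlation with a library of another stage than with any of its own. Metestrus replicate 6 was at 0.925 to 0.937 with proestrus and 0.947 with diestrus replicate 3, replicate 5 at 0.917 to 0.918 with estrus, and replicate 7 at 0.922 and 0.926 with diestrus replicates 3 and 4. Among the 300 higher genes, metestrus replicate 6 lay nearest to proestrus in 203 and replicate 7 lay farthest in 166. Among the 219 lower genes, replicate 6 was nearest in 105 and replicate 5 in 92, and replicate 7 was farthest in 147. The number of calls moved with the libraries used: leaving out metestrus replicates 5, 6 and 7 in turn gave 680, 1080 and 208 calls. It was 188, 78 and 108 without proestrus replicates 1, 2 and 3, between 333 and 429 without an estrus or diestrus library, and 42, of which 38.1% were higher, when the 6 samples were fitted alone. With limma-voom 378 genes were called and 44.4% of them were higher, against 57.8% in the edgeR fit. Beside each group of genes the calls left without a library are therefore given, and a call is said to hold where its adjusted p stayed under 0.05 in all 20 alternative fits in which the gene was tested.

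The 10 genes with the smallest p all held. Rhob, a small GTPase of the actin cytoskeleton and endosomes (ENSMUSG00000054364, chromosome 12, 8497661 to 8500009), measured 71.3, 78.7 and 72.6 CPM in proestrus and 168, 149 and 154 CPM in metestrus (log2 fold change 1.08, SE 0.12, edgeR adjusted p = 0.00235). Every metestrus value was above every proestrus value, and the libraries within each stage were close together. The estrus mean was 84.8 ± 4.88 and the diestrus mean 189.9 ± 12 CPM (SD, n = 3). Ano1, a calcium-activated chloride channel of smooth muscle, pacemaker cells and some epithelia (ENSMUSG00000031075, chromosome 7, 144588549 to 144751974), measured 91.8, 69.5 and 60.9 CPM and then 303, 170.4 and 262 CPM in the same order (log2 fold change 1.73, SE 0.21, edgeR adjusted p = 0.00263). Apoe, the apolipoprotein that carries cholesterol between cells (ENSMUSG00000002985, chromosome 7, 19696109 to 19699188), measured 545, 481 and 544 CPM in proestrus and 1854, 1074 and 1528 CPM in metestrus (log2 fold change 1.5, SE 0.19, edgeR adjusted p = 0.00324). Nbl1, a secreted antagonist of bone morphogenetic proteins, measured 93, 90 and 89.8 CPM and 338, 198 and 239.7 CPM (log2 fold change 1.51, SE 0.19, edgeR adjusted p = 0.00324). Mmp2, the gelatinase that cleaves collagen fragments and basement membrane, measured 108, 83 and 77.6 CPM and 402, 189 and 354 CPM (log2 fold change 1.82, SE 0.24, edgeR adjusted p = 0.00378). In these 4 genes metestrus replicate 5 was the highest and replicate 6 the lowest of its stage, and none of the groups overlapped.

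The other 5 of the 10 fell. Mfsd4a, a transporter-like membrane protein (ENSMUSG00000059149, chromosome 1, 132022806 to 132068062), measured 167, 232 and 177 CPM in proestrus and 25.9, 39.8 and 13.1 CPM in metestrus (log2 fold change -2.87, SE 0.32, edgeR adjusted p = 0.00235). Golm1, a Golgi membrane protein of epithelial cells (ENSMUSG00000021556, chromosome 13, 59634626 to 59675811), measured 110.1, 167 and 135 CPM and 37.9, 42.3 and 19.1 CPM (log2 fold change -2.05, SE 0.24, edgeR adjusted p = 0.00263). Padi1, which converts arginine to citrulline in proteins (ENSMUSG00000025329, chromosome 4, 140812983 to 140845778), measured 102, 153 and 153 CPM and 33.7, 27.1 and 13.7 CPM (log2 fold change -2.44, SE 0.29, edgeR adjusted p = 0.00263). All 3 were lowest in metestrus replicate 7, and the stages did not overlap. Mall, a lipid-raft protein of the MAL family, measured 25.1, 25.3 and 27.4 CPM and 1.56, 5.05 and 4.17 CPM (log2 fold change -2.87, SE 0.36, edgeR adjusted p = 0.00315). Slc28a3, a concentrative nucleoside transporter, measured 27.4, 43.7 and 24.4 CPM and 7.78, 8.21 and 7.75 CPM (log2 fold change -2.00, SE 0.26, edgeR adjusted p = 0.00337). Exons of Mfsd4a overlap Elk4 and exons of Golm1 overlap Naa35 on the opposite strand, and the use of strand in counting is not given in the sources used here, so that these counts are uncertain in part.

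The 12 largest falls among genes of at least 20 CPM in proestrus included Mfsd4a, Mall and 10 others. Nppc, which encodes C-type natriuretic peptide (ENSMUSG00000026241, chromosome 1, 86666291 to 86670571), measured 138, 80.9 and 116 CPM in proestrus and 0.519, 24.6 and 4.17 CPM in metestrus (log2 fold change -3.57, SE 0.62, edgeR adjusted p = 0.0102). Its log2 fold change was -5.6 without metestrus replicate 6, the highest of its stage, and -2.97 without replicate 5, the lowest. Add2, an adducin of the membrane skeleton, measured 14.3, 29.6 and 21.3 CPM and 3.11, 1.89 and 0.596 CPM (log2 fold change -3.46, SE 0.50, edgeR adjusted p = 0.00509), and its log2 fold change was -4.08 without metestrus replicate 5. Myb, a transcription factor of progenitor and epithelial cells, measured 29.7, 52.8 and 42.6 CPM and 11.9, 6.94 and 1.79 CPM (log2 fold change -2.56, SE 0.47, edgeR adjusted p = 0.0119), with a log2 fold change of -3.26 without metestrus replicate 5. Ovol2, a transcription factor that keeps epithelial identity, measured 21.7, 24.8 and 19.8 CPM and 4.67, 4.42 and 1.79 CPM (log2 fold change -2.58, SE 0.45, edgeR adjusted p = 0.0104). Lgr6, an R-spondin receptor, measured 33.6, 22.6 and 63.9 CPM and 6.22, 12.6 and 2.98 CPM (log2 fold change -2.47, SE 0.44, edgeR adjusted p = 0.0109). None of these 5 genes overlapped between the stages. Log2 fold changes of Slc16a14 and Cbr2 were -2.54 (edgeR adjusted p = 0.0262) and -2.46 (edgeR adjusted p = 0.0131), and 16.3% of the 31-base stretches in the last 1000 bases of Cbr2 also occur in another gene, which leaves its count uncertain. Those of Slc16a14 were -1.82 without proestrus replicate 2 and -3.2 without metestrus replicate 6, that of Lgr6 was -3.08 without metestrus replicate 6, and that of Cbr2 was -3.31 without metestrus replicate 5. Of the 12 falls, 5 held (Add2, Dhrs9, Mall, Mfsd4a and Padi2), and 11, 7 and 9 were still called without proestrus replicates 1, 2 and 3, 11 without metestrus replicate 5 and 10 without metestrus replicate 7.

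The 12 largest rises among genes of at least 20 CPM in metestrus reached their highest value in metestrus replicate 7 in 10 of 12 cases. Ctla2a, a cathepsin inhibitor of decidua and lymphocytes (ENSMUSG00000044258, chromosome 13, 60934155 to 60936625), measured 199, 257 and 221 CPM in proestrus and 1355, 523 and 11610 CPM in metestrus (log2 fold change 4.32, SE 0.88, edgeR adjusted p = 0.0179), and its log2 fold change was 2.07 without metestrus replicate 7. Of its 31-base stretches 38.2% also occur in another gene, so its count is uncertain. Sult1d1, a sulfotransferase, measured 16, 25.3 and 4.57 CPM and 33.7, 46.7 and 517 CPM (log2 fold change 3.71, SE 0.92, edgeR adjusted p = 0.03995), and 1.4 on the log2 scale without metestrus replicate 7. Slc6a2, the noradrenaline transporter, measured 1.71, 0 and 2.03 CPM and 3.11, 12.6 and 73.9 CPM (log2 fold change 4.49, SE 1.06, edgeR adjusted p = 0.0331), and 2.54 without the same library. Inmt, an indolethylamine methyltransferase (ENSMUSG00000003477, chromosome 6, 55170626 to 55175043), measured 5.13, 9.16 and 2.03 CPM and 115, 16.4 and 264 CPM (log2 fold change 4.59, SE 0.82, edgeR adjusted p = 0.0109), with 3.62 without metestrus replicate 7 and 5.2 without proestrus replicate 2. In each of these 4 genes the highest value was that of metestrus replicate 7, by the widest margin in Ctla2a and Sult1d1, and no group overlapped. Krt23 had a log2 fold change of 4.06 (3.26 without metestrus replicate 7 and 5.22 without proestrus replicate 1), Dpep1 of 3.36 (2.64 without metestrus replicate 7) and Galnt15 of 2.86 (2.21 without it). Pamr1 and Apod had log2 fold changes of 2.86 and 2.62, and that of Pamr1 was 1.9 without metestrus replicate 5. None of the 12 rises held: 4, 2 and 1 were still called without proestrus replicates 1, 2 and 3, and 11, 12 and 5 without metestrus replicates 5, 6 and 7. With limma-voom 3 were called, and with the 6 samples alone 0.

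**Figure D2:**
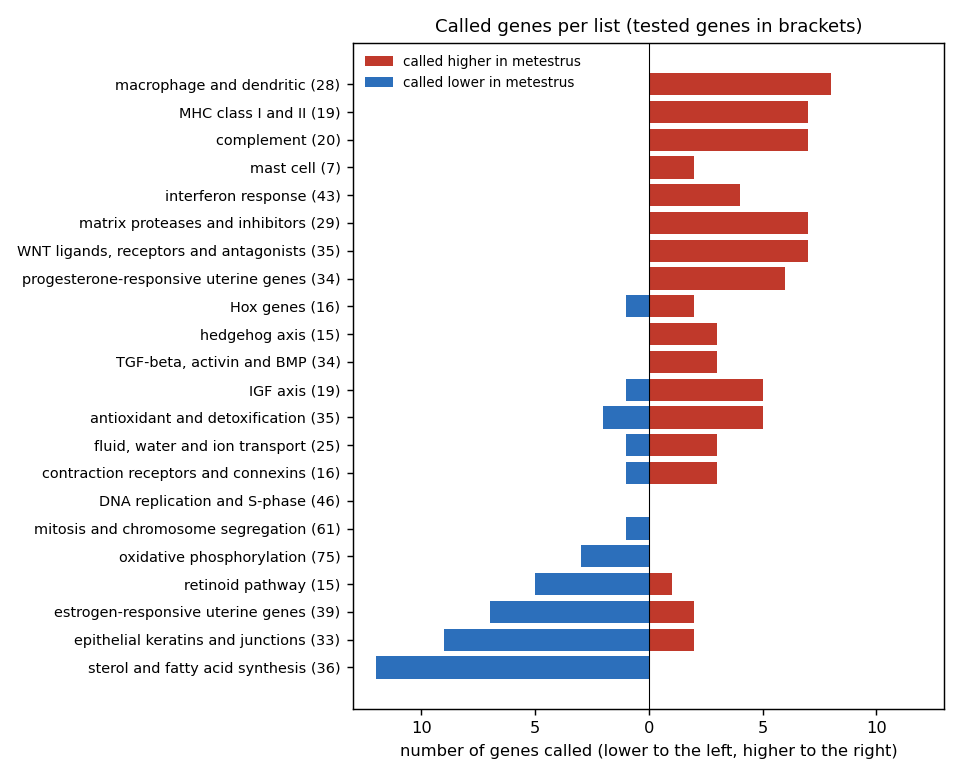
Bars give the number of genes called lower (left, blue) and higher (right, red) in metestrus by edgeR in 22 of the 62 gene lists, with the number of tested genes in brackets. Sterol synthesis (12 lower) and epithelial keratins and junctions (9 lower) lie to the left, and macrophage, MHC, complement, protease and WNT genes lie to the right with 7 or 8 higher and 0 lower. Over all tested genes 2.49% were called higher and 1.82% lower. Some genes belong to several of the lists.

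Of 33 tested epithelial keratin and junction genes, 9 fell and 2 rose in metestrus, with a median log2 fold change of -0.90, and 18 lay below proestrus in every metestrus library. Krt7, a keratin of simple epithelia (ENSMUSG00000023039, chromosome 15, 101411043 to 101430313), measured 404, 664 and 487 CPM in proestrus and 163, 111 and 79.3 CPM in metestrus (log2 fold change -2.13, SE 0.31, edgeR adjusted p = 0.00509), and its call held. Elf3, an epithelial transcription factor, measured 232, 293 and 238 CPM and 91.8, 62.5 and 16.1 CPM (log2 fold change -2.15, SE 0.38, edgeR adjusted p = 0.0106). Cdh1, which encodes E-cadherin of the adherens junction, measured 84.4, 119.7 and 90.3 CPM and 61.2, 48.6 and 35.8 CPM (log2 fold change -1.01, SE 0.19, edgeR adjusted p = 0.0131). Each was lowest in metestrus replicate 7, and no value of one stage reached the other. The desmosome genes Dsp, Dsc2, Dsg2 and Perp fell by log2 fold changes of -1.27, -1.89, -1.1 and -1.18, the splicing regulator Esrp1 by -1.08 and the tight junction gene Cldn7 by -1.02 (edgeR adjusted p between 0.0218 and 0.0407). That of Dsc2 was -2.63 without metestrus replicate 6. The claudins that rose were low in proestrus: Cldn4 measured 2.85, 1.62 and 1.02 CPM and 11.4, 5.68 and 5.36 CPM (log2 fold change 2.04, SE 0.46, edgeR adjusted p = 0.0279), and Cldn1, at 0 to 2 counts in proestrus, was at least 5.9-fold higher in metestrus against a floor of 3 counts per library (edgeR adjusted p = 0.0193). Of these 11 calls, 5, 1 and 3 were left without proestrus replicates 1, 2 and 3, 8 without metestrus replicate 5 and 4 without metestrus replicate 7, and 1 with the 6 samples alone.

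Of 8 pan-epithelial markers, several of which are also in that list, Cdh1 and Cldn7 fell and Cldn4 rose. Summed over the 8 the level was 1232 to 1641 CPM in proestrus and 603 to 1047 CPM in metestrus, without overlap. Epcam, an epithelial surface protein, was below proestrus in all 3 metestrus libraries, but its adjusted p in edgeR was 0.0635 (log2 fold change -0.9). Krt19 likewise had an edgeR adjusted p of 0.06598 (log2 fold change -1.65). In estrus the same sum was 1326 to 1588 CPM, and in diestrus 650 to 783 CPM. In 2 other epithelial lists the median was above 0, with a change of sign in some settings (-0.07 with counts rebuilt from TPM in the first, -0.06 with a mean of at least 50 counts in the second): of 24 tested epithelial transcription factors Elf3 and Ovol2 fell and 0 rose (median log2 fold change 0.10), and of 12 tested uterine gland genes Cxcl15 rose and Aldh1a1 fell (median 0.57), with sums of 1850 to 1939 CPM in proestrus and 1602 to 2349 CPM in metestrus. Of 8 tested genes of the mesothelium, the outer lining of the uterus, 0 were called in edgeR (3 at an unadjusted p under 0.05, 0 by DESeq2 and 1 by limma-voom), 7 had a fitted value below 0 and the median was -0.70. The mesothelial sum was 338 to 428 CPM in proestrus and 182 to 223 CPM in metestrus, without overlap. That list includes Krt19, and mesothelium is also known to express Krt7 and Aldh1a2. The part of the amount of epithelium or mesothelium in the genes described here was not tested.

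Of 39 tested estrogen-responsive genes 7 fell and 2 rose (Sult1d1 and Slc6a2), with a median log2 fold change of -0.69 and 12 fitted values above 0. The summed level overlapped between stages, at 5906, 7576 and 5764 CPM in proestrus and 6936, 2633 and 2763 CPM in metestrus. Besides Nppc and Padi1, the genes that fell were Padi2, Klf4, Muc1, Sprr2g and Oxtr. Padi2 measured 115, 142 and 142 CPM in proestrus and 25.9, 36 and 11.3 CPM in metestrus (log2 fold change -2.45, SE 0.36, edgeR adjusted p = 0.00509). Klf4, a zinc finger factor of epithelial differentiation (ENSMUSG00000003032, chromosome 4, 55527143 to 55532466), measured 488, 512 and 325 CPM and 108, 190.0 and 128 CPM (log2 fold change -1.64, SE 0.24, edgeR adjusted p = 0.00509). Muc1, a mucin of the apical surface, measured 59.3, 104 and 57.4 CPM and 37.9, 18.3 and 8.35 CPM (log2 fold change -1.74, SE 0.40, edgeR adjusted p = 0.0302), and its log2 fold change was -2.47 without metestrus replicate 5. Sprr2g, a small proline-rich protein of the cornified envelope family, measured 31.9, 25.3 and 24.4 CPM and 7.78, 8.84 and 2.98 CPM (log2 fold change -2.04, SE 0.36, edgeR adjusted p = 0.0109). In all 4 the stages were apart. Padi1, Padi2 and Klf4 held, and 5, 6 and 5 of the 9 calls were left without proestrus replicates 1, 2 and 3 and 5 without metestrus replicate 7. The receptors themselves were not called: Esr1 measured 322, 292 and 263 CPM and 215, 288 and 203 CPM (edgeR adjusted p = 0.268) and Pgr 271, 221 and 282 CPM and 171, 283 and 134 CPM (edgeR adjusted p = 0.422), with overlapping values in both. Of 18 tested receptors and cofactors, 1 was called, the cofactor Nrip1 (log2 fold change -0.79, edgeR adjusted p = 0.0257; 0.261 with counts rebuilt from TPM, and not called without any of the proestrus libraries or metestrus replicate 7). Epithelial serine proteases and their inhibitors had 3 of 16 lower, Tmprss4 (-0.93), Tmprss11d (-2.81) and Serpinb5, which at 0 to 2 counts in metestrus was at least 4.41-fold lower. All 3 were left without proestrus replicate 1, 0 without replicate 2, 2 without replicate 3, 3 without metestrus replicates 5 or 6 and 2 without replicate 7.

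Of 36 tested genes of sterol and fatty acid synthesis 12 fell and 0 rose, with a median log2 fold change of -0.68, and 18 members below proestrus in every metestrus library. Most of these genes encode the steps from acetyl-CoA through mevalonate to cholesterol, and are known to be switched on together by the transcription factor SREBP2 when cell sterol is low. Of the first steps, Hmgcs1, which makes HMG-CoA, measured 47.3, 63.1 and 69 CPM in proestrus and 30.1, 27.1 and 13.7 CPM in metestrus (log2 fold change -1.33, SE 0.26, edgeR adjusted p = 0.0147). The mevalonate enzymes followed: Mvk, a kinase, with a log2 fold change of -1.23 (edgeR adjusted p = 0.0347), Mvd, a decarboxylase, with -1.61 (0.0257 by the same test), Fdps, which makes farnesyl diphosphate, with -1.6 (0.00959) and Idi1, the isomerase. Idi1 had the largest fall of the 12 and measured 29.7, 43.7 and 47.7 CPM and 7.26, 10.7 and 7.15 CPM (log2 fold change -2.27, SE 0.31, edgeR adjusted p = 0.00378). Metestrus values of Idi1 were all below the lowest proestrus value, and its call held.

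Genes of later steps to cholesterol were also among the 12. Sqle, the squalene epoxidase, had a log2 fold change of -1.5 (edgeR adjusted p = 0.0277), Cyp51, the lanosterol demethylase, of -1.49 (0.0102) and Msmo1, the methylsterol oxidase, of -1.79 (0.0147). Insig1, which retains the sterol sensor in the endoplasmic reticulum, measured 35.4, 49.6 and 60.9 CPM in proestrus and 29.6, 25.2 and 24.4 CPM in metestrus (log2 fold change -0.88, SE 0.20, edgeR adjusted p = 0.0286). Stard4, a sterol carrier, had a log2 fold change of -1.26 (edgeR adjusted p = 0.0264). Proestrus replicate 1 was the lowest of its stage in 11 of the 12, and in all 12 the metestrus values lay below the lowest proestrus value. Fasn, the fatty acid synthase, measured 62.8, 67.9 and 65 CPM and 73.6, 70.7 and 74.5 CPM (edgeR adjusted p = 0.529). Without proestrus replicates 1, 2 and 3, 10, 4 and 4 of the 12 calls were left, without metestrus replicates 5, 6 and 7 there were 9, 11 and 7, and with the 6 samples alone 2. Of the 31-base stretches near the 3' end, 26.8% in Idi1 and 42.8% in Fdps occur in another gene, and Cyp51 overlaps Akap9 on the opposite strand, which leaves these 3 uncertain. Summed over the list, levels were 1442, 1640 and 1748 CPM in proestrus and 1161, 1228 and 954 CPM in metestrus, beside 895 to 1107 CPM in estrus and 1106 to 1179 CPM in diestrus.

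The promoter of Hmgcs1 is shown because it holds letters of a sterol regulatory element, the site bound by SREBP factors. The motif searched was TCACNCCAC on both strands in the 200 bases before the start, and it is present in 0.858% of 32851 mouse promoters. Of the 12 genes that fell, 7 were in the promoter table and 1, Hmgcs1, held the motif. The bases are from RefSeq, build GRCm38.p6, chr13:119690151-119690350, plus strand, with the motif in capitals.
Hmgcs1: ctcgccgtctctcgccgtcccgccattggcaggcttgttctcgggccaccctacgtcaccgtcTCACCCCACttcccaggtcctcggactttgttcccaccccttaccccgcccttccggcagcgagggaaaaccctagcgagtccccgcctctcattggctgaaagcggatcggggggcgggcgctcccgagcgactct
A match describes letters only and is not a measurement of binding.

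**Figure D3:**
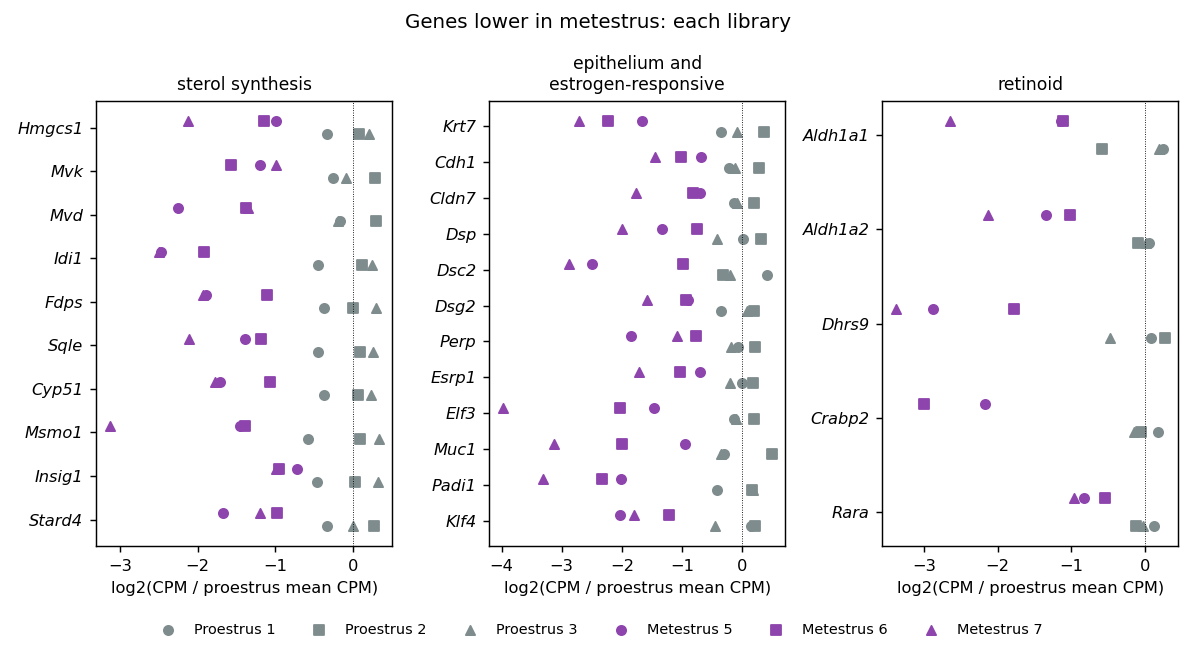
Points give the log2 ratio of the CPM of each library to the mean of the 3 proestrus libraries, for 27 genes lower in metestrus (proestrus grey, metestrus purple, symbols by replicate). Metestrus points lie to the left of the proestrus points in every gene drawn. Crabp2 was at 0 CPM in metestrus replicate 7, and that value is not drawn.

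Retinoid genes fell in 5 cases and rose in 1 of 15 tested, and their summed level overlapped, at 1046 to 1111 CPM in proestrus and 966 to 1092 CPM in metestrus. Retinoic acid is made from retinol by dehydrogenases and acts on nuclear receptors. Dhrs9, a retinol dehydrogenase (ENSMUSG00000027068, chromosome 2, 69380445 to 69404533), measured 53, 60.4 and 36 CPM in proestrus and 6.74, 14.5 and 4.77 CPM in metestrus (log2 fold change -2.53, SE 0.40, edgeR adjusted p = 0.00744), and held. Aldh1a2, which makes retinoic acid in the stroma, measured 114, 103 and 111 CPM and 43, 54.3 and 25 CPM (log2 fold change -1.42, SE 0.26, edgeR adjusted p = 0.0118). Crabp2, which carries retinoic acid to its receptor, measured 34.2, 29.1 and 27.4 CPM and 6.74, 3.79 and 0 CPM (log2 fold change -3.04, SE 0.71, edgeR adjusted p = 0.0303), and its log2 fold change was -3.99 without metestrus replicate 5. All 3 genes were lowest in metestrus replicate 7, without overlap. Aldh1a1 (-1.47, edgeR adjusted p = 0.0483) and the receptor Rara (-0.77, edgeR adjusted p = 0.0155) were also lower. The gene that rose was Rarres2 (0.62, edgeR adjusted p = 0.0238), which encodes the chemoattractant chemerin and overlaps Lrrc61 on the opposite strand. Of these 6 calls, 2 were left without any 1 of the proestrus libraries, 6 without metestrus replicates 5 or 6 and 3 without replicate 7.

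Progesterone-responsive genes rose in 6 of 34 tested and fell in 0, with a median log2 fold change of 0.57. Members of the hedgehog axis were among them. Ihh, the Indian hedgehog ligand that progesterone induces in the epithelium, was at 1 to 2 counts per library in proestrus and at 3.63, 5.68 and 10.1 CPM in metestrus, at least 4.01-fold higher against the floor (edgeR adjusted p = 0.0172). Ptch1, its receptor and a target in the stroma (ENSMUSG00000021466, chromosome 13, 63508328 to 63573598), measured 14.8, 9.7 and 10.2 CPM in proestrus and 22.3, 20.8 and 72.1 CPM in metestrus (log2 fold change 1.73, SE 0.45, edgeR adjusted p = 0.0482). Gli1, a transcriptional target of the pathway, measured 9.13, 5.39 and 4.06 CPM and 15, 18.3 and 22.1 CPM (log2 fold change 1.58, SE 0.30, edgeR adjusted p = 0.0136). All 3 were highest in metestrus replicate 7 and did not overlap with proestrus. Without metestrus replicate 7 the log2 fold change of Ptch1 was 0.91, and with counts rebuilt from TPM its edgeR adjusted p was 0.982. In estrus Ptch1 measured 8.52 ± 4.62 and Gli1 2.67 ± 0.8296 CPM, and in diestrus 53.6 ± 2.7 and 38.3 ± 3.01 CPM (mean ± SD, n = 3). Of the 15 tested hedgehog genes 3 rose and 0 fell. Gli1 shares exon positions with Arhgap9 on the opposite strand.

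Other progesterone-responsive genes that rose were Hoxa10, Hoxa11 and Irs2. Hoxa10 and Hoxa11, homeobox factors of the uterine stroma needed for implantation, measured 152, 142 and 155 CPM against 241, 227 and 396 CPM (log2 fold change 0.94, SE 0.18, edgeR adjusted p = 0.0147) and 32.5, 29.1 and 28.4 CPM against 47.7, 48 and 111 CPM (log2 fold change 1.2, SE 0.29, edgeR adjusted p = 0.0342). Irs2, an adaptor of insulin receptors, measured 3.99, 2.7 and 4.06 CPM and 21.3, 4.42 and 23.2 CPM (log2 fold change 2.18, SE 0.49, edgeR adjusted p = 0.0274). Metestrus replicate 7 was the highest in all 3, and no stage overlapped the other. Among 16 tested Hox genes, Hoxb4 fell, with a log2 fold change of -1.48 (edgeR adjusted p = 0.0162), and 1, 0 and 0 of the 3 Hox calls were left without proestrus replicates 1, 2 and 3 and 1 without metestrus replicate 7. Of the 6 progesterone-responsive calls 1, 0 and 0 were left without proestrus replicates 1, 2 and 3, 5, 6 and 2 without metestrus replicates 5, 6 and 7, and 0 with the 6 samples alone. With DESeq2 6 of them were left and with limma-voom 2. The stromal regulators Hand2 and Nr2f2 were above proestrus in every metestrus library but missed the threshold (edgeR adjusted p = 0.0779 and 0.107).

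WNT genes rose in 7 of 35 tested and fell in 0, with a median log2 fold change of 0.41. WNT ligands act through Frizzled receptors, and secreted proteins of the SFRP family can bind the ligands. Of the 7 genes, 4 encode secreted proteins of the SFRP and DKK families. Sfrp2 (ENSMUSG00000027996, chromosome 3, 83766321 to 83774316) measured 15.4, 20 and 8.63 CPM in proestrus and 87.1, 41.7 and 102 CPM in metestrus (log2 fold change 2.4, SE 0.32, edgeR adjusted p = 0.00378), and held. Dkk3 measured 22.2, 38.8 and 18.8 CPM and 149.9, 64.4 and 113 CPM (log2 fold change 2.04, SE 0.30, edgeR adjusted p = 0.00509). Sfrp1 (1.23, edgeR adjusted p = 0.0225) and Frzb (1.08, edgeR adjusted p = 0.0415) also rose. The receptor Fzd1 measured 16.5, 14 and 17.8 CPM and 37.3, 29.7 and 50.1 CPM (log2 fold change 1.27, SE 0.22, edgeR adjusted p = 0.00959). Nkd2, which dampens the signal inside the cell, measured 13.7, 14.6 and 11.7 CPM and 67.4, 34.7 and 40.5 CPM (log2 fold change 1.84, SE 0.31, edgeR adjusted p = 0.00959), and held. Lef1, a DNA-binding effector, measured 5.7, 12.4 and 3.04 CPM and 17.6, 16.4 and 31.6 CPM (log2 fold change 1.63, SE 0.39, edgeR adjusted p = 0.0354), and 2.32 without proestrus replicate 2. In all 7 genes the lowest metestrus value lay above the highest proestrus value. Of the 7 calls 4 were left without any 1 of the proestrus libraries, 7 without metestrus replicates 5 or 6 and 4 without replicate 7.

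MHC genes rose in 7 of 19 tested and fell in 0, with a median log2 fold change of 1.02. MHC class I proteins show peptides from inside the cell and pair with beta-2 microglobulin, and class II proteins show peptides taken up by dendritic cells, macrophages and B cells. In class II, H2-Aa (ENSMUSG00000036594, chromosome 17, 34282744 to 34287823) measured 90.1, 75.5 and 60.9 CPM in proestrus and 178, 162 and 255 CPM in metestrus (log2 fold change 1.4, SE 0.23, edgeR adjusted p = 0.00873), and held. H2-Eb1 measured 70.7, 57.1 and 98 CPM and 206, 184 and 359.5 CPM (log2 fold change 1.73, SE 0.29, edgeR adjusted p = 0.00959). Cd74, the invariant chain that guides class II, measured 152, 149 and 124 CPM and 328, 282 and 492 CPM (log2 fold change 1.38, SE 0.33, edgeR adjusted p = 0.03297), and H2-Ab1 had a log2 fold change of 1.22 (edgeR adjusted p = 0.0432). In class I, B2m, the shared light chain, measured 304, 369.8 and 265 CPM and 686, 479 and 735 CPM (log2 fold change 1.02, SE 0.18, edgeR adjusted p = 0.0102). H2-T23 and H2-Q7 had log2 fold changes of 1.18 and 1.13 (edgeR adjusted p = 0.0218 and 0.0388), but 30.1% and 33.7% of their 31-base stretches occur in other genes, so reads may be split among class I copies. All 7 were highest in metestrus replicate 7 and lowest of the stage in replicate 6, and none overlapped proestrus. Summed over the list, the level was 979 to 1370 CPM in proestrus and 1790 to 2752 CPM in metestrus. Of the 7 calls 4, 2 and 2 were left without proestrus replicates 1, 2 and 3, 6, 7 and 3 without metestrus replicates 5, 6 and 7, and 2 with the 6 samples alone.

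Promoters of 4 of these genes are shown because MHC promoters are known to share the Y box, bound by the factor NF-Y. The letters searched were CTGATTGG on both strands in the 200 bases before the start, found in 3.54% of 32851 mouse promoters. Of the 7 genes that rose, 5 were in the promoter table and 4 held it, whereas B2m did not. The match is in capitals and reads CCAATCAG where it lies on the other strand. Its first letter lies 51, 62, 16 and 52 bases before the start in the order printed. The bases are from RefSeq, build GRCm38.p6: H2-Aa at chr17:34287824-34288023 (minus strand), H2-Eb1 at chr17:34305667-34305866 (plus strand), H2-Q7 at chr17:35438955-35439154 (plus strand) and H2-T23 at chr17:36032702-36032901 (minus strand).
H2-Aa: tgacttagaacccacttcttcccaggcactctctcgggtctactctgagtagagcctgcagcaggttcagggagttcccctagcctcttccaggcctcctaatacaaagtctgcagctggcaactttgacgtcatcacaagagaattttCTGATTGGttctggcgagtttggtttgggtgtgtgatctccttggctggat
H2-Eb1: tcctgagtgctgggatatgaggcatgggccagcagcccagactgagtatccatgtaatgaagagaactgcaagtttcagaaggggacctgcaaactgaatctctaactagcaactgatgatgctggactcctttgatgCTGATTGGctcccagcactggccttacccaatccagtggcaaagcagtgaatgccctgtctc
H2-Q7: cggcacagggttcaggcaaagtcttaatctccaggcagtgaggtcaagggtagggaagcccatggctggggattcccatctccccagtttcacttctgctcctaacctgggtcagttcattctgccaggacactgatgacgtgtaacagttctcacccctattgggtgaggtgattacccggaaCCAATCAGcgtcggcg
H2-T23: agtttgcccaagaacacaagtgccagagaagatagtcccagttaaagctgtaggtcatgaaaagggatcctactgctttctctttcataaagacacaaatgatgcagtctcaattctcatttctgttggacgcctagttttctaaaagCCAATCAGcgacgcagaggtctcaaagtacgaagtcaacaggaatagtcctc
Only the short box was searched for, and the bases around it were not compared between the 4 promoters. A match is a description of letters.

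Macrophage and dendritic cell genes rose in 8 of 28 tested and fell in 0, with a median log2 fold change of 0.92, and 17 members were above proestrus in every metestrus library. Besides the class II genes and Cd74 the members called were Lyz2, Tyrobp, C1qb and C1qc. The class II genes and Cd74 are also counted in the MHC list, C1qb and C1qc in the complement list and Lyz2 among the secreted defence proteins. Lyz2, a lysozyme of myeloid cells, measured 96.4, 88.4 and 84.2 CPM in proestrus and 188, 131 and 303 CPM in metestrus (log2 fold change 1.21, SE 0.26, edgeR adjusted p = 0.0218), with 37.4% of its 31-base stretches shared with Lyz1. Tyrobp, a signalling adaptor of myeloid and natural killer cells, measured 37.1, 39.9 and 34 CPM and 76.8, 48.6 and 123 CPM (log2 fold change 1.17, SE 0.27, edgeR adjusted p = 0.0284). Of the 8 calls 2, 1 and 4 were left without proestrus replicates 1, 2 and 3 and 7, 8 and 3 without metestrus replicates 5, 6 and 7. Over the list the summed level was 1084 to 1151 CPM in proestrus and 1676 to 2937 CPM in metestrus.

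Complement genes rose in 7 of 20 tested and fell in 0, with a median log2 fold change of 0.83. The summed level overlapped between stages, at 1550, 2492 and 1648 CPM in proestrus and 3860, 1386 and 2278 CPM in metestrus. The first component was represented by C1qb, with 55.9, 50.1 and 76.6 CPM and 113, 89 and 137 CPM (log2 fold change 0.89, SE 0.20, edgeR adjusted p = 0.0265), C1qc (1.02) and C1ra (0.98). C4b, the next component, measured 22.2, 19.4 and 16.2 CPM in proestrus and 33.2, 42.3 and 60.2 CPM in metestrus (log2 fold change 1.23, SE 0.24, edgeR adjusted p = 0.0147). The receptor C3ar1 (0.95), the inhibitor Cd59a (0.71) and the lectin pathway protease Masp1 (2.06) rose as well, with edgeR adjusted p of 0.0494, 0.0334 and 0.0402. Masp1 overlapped, since metestrus replicate 6 at 5.05 CPM was below proestrus replicate 1 at 5.13 CPM. Shared 31-base stretches made up 40.0% of C4b and 41.2% of C1ra. Of the 7 calls 1, 0 and 2 were left without proestrus replicates 1, 2 and 3 and 4, 7 and 2 without metestrus replicates 5, 6 and 7.

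Interferon response genes rose in 4 of 43 tested and fell in 0. The median log2 fold change was 0.74, and 42 of the 43 had a fitted value above 0. Of the 4 calls, 4 were left with DESeq2 and 0 with limma-voom. Oasl2, an antiviral oligoadenylate synthetase-like protein, measured 9.7, 17.2 and 12.7 CPM in proestrus and 38.4, 22.1 and 46.5 CPM in metestrus (log2 fold change 1.43, SE 0.35, edgeR adjusted p = 0.0363). Usp18, which removes ISG15 from proteins, had a log2 fold change of 2.18 (edgeR adjusted p = 0.0228). Ifit3b, an antiviral RNA-binding protein, was at 1 to 3 counts in proestrus and at least 6.19-fold higher in metestrus (edgeR adjusted p = 0.0203), and 28.8% of its 31-base stretches occur in Ifit3. None of the 4 calls was left without any 1 of the proestrus libraries or without metestrus replicate 7, 2 were left without metestrus replicate 5, and 15 genes of the list were called without replicate 6. Metestrus replicate 7 was the highest in Oasl2 and Ifit3b and replicate 5 in Usp18.

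The promoter of Ifit3b is shown for the element of interferon-stimulated genes, searched as GAAANNGAA on both strands in the 200 bases before the start and found in 5.57% of 32851 promoters. It occurs at 3 places, 187, 153 and 134 bases before the start, in capitals on the strand shown as the reverse complement. Of the 4 genes that rose 2 were in the table, and Oasl2 did not hold these letters. The bases are from RefSeq, build GRCm38.p6, chr19:34607757-34607956, plus strand.
Ifit3b: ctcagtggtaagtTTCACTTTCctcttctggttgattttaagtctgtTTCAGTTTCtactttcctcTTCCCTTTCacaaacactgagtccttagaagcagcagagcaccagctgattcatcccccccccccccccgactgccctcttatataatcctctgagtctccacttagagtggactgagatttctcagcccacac

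Mast cell genes lay above proestrus in every metestrus library in all 7 members tested, with 2 called and a median log2 fold change of 1.52. Cma1, a chymase of mast cell granules, measured 2.28, 2.7 and 5.58 CPM in proestrus and 10.4, 19.6 and 15.5 CPM in metestrus (log2 fold change 2.06, SE 0.47, edgeR adjusted p = 0.0274), with 11.5% of its 31-base stretches shared. Hdc, the enzyme that makes histamine, measured 3.99, 5.93 and 6.09 CPM and 6.74, 23.4 and 41.1 CPM (log2 fold change 2.11, SE 0.51, edgeR adjusted p = 0.0347), and 1.44 on the log2 scale without metestrus replicate 7. Cpa3, a carboxypeptidase of the same granules, measured 2.28, 5.39 and 1.52 CPM and 8.3, 10.1 and 8.35 CPM, and Kit, the receptor for stem cell factor, 2.28, 3.23 and 3.04 CPM and 4.67, 5.68 and 12.5 CPM, without passing the threshold in edgeR (adjusted p = 0.113 and 0.234). These levels are close to the floor of 3 counts, which was 1.52 to 1.89 CPM in these libraries. Neither call was left without any 1 of the proestrus libraries, without metestrus replicate 7 or with limma-voom, and both were left with DESeq2. The list summed to 31.9 to 39.1 CPM in proestrus and 70.5 to 126 CPM in metestrus.

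Other lists of leukocyte and inflammation genes gave 0 to 3 calls each. These counts are to be read beside the number tested in each list and the 4.31% called over all tested genes. Of 12 tested lymphocyte and natural killer genes 1 rose, Ptprc, the common leukocyte antigen, with 16.5, 20 and 16.2 CPM and 38.4, 29 and 69.2 CPM (log2 fold change 1.37, SE 0.30, edgeR adjusted p = 0.0228). It was not called without any 1 of the proestrus libraries or without metestrus replicate 7. Of the 12, 11 had a fitted value above 0 and 6 had an unadjusted p under 0.05 in edgeR. Their median log2 fold change was 1.17, and 0.56 without metestrus replicate 7. The lymphocyte and natural killer list summed to 128 to 253 CPM in proestrus and 270 to 423 CPM in metestrus, without overlap. Of 7 tested neutrophil genes 0 were called in edgeR (2 at an unadjusted p under 0.05, 1 by DESeq2 and 0 by limma-voom), and that list summed to 23.2 to 48.7 CPM in proestrus and 27.5 to 55.4 CPM in metestrus. Among 20 chemokine ligands, Ccl5 (2.38, edgeR adjusted p = 0.03995) and the gland product Cxcl15 rose, the latter from 0 counts in all proestrus libraries and at least 4.25-fold. Ccl11, or eotaxin, fell from 34.2, 30.7 and 38.6 CPM in proestrus to 4.15, 15.2 and 10.7 CPM in metestrus (log2 fold change -1.81, SE 0.37, edgeR adjusted p = 0.0193), with no overlap. Of these 3 calls none was left without any 1 of the proestrus libraries, and 2 were left without metestrus replicate 5 or 7. Of 25 NF-kappaB and innate inflammation genes 2 fell, the receptor Il17ra (-1.31, edgeR adjusted p = 0.00873) and Nfkbiz (-1.29, edgeR adjusted p = 0.0397), and 1 of them was left without each proestrus library and without metestrus replicates 6 or 7.

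**Figure D4:**
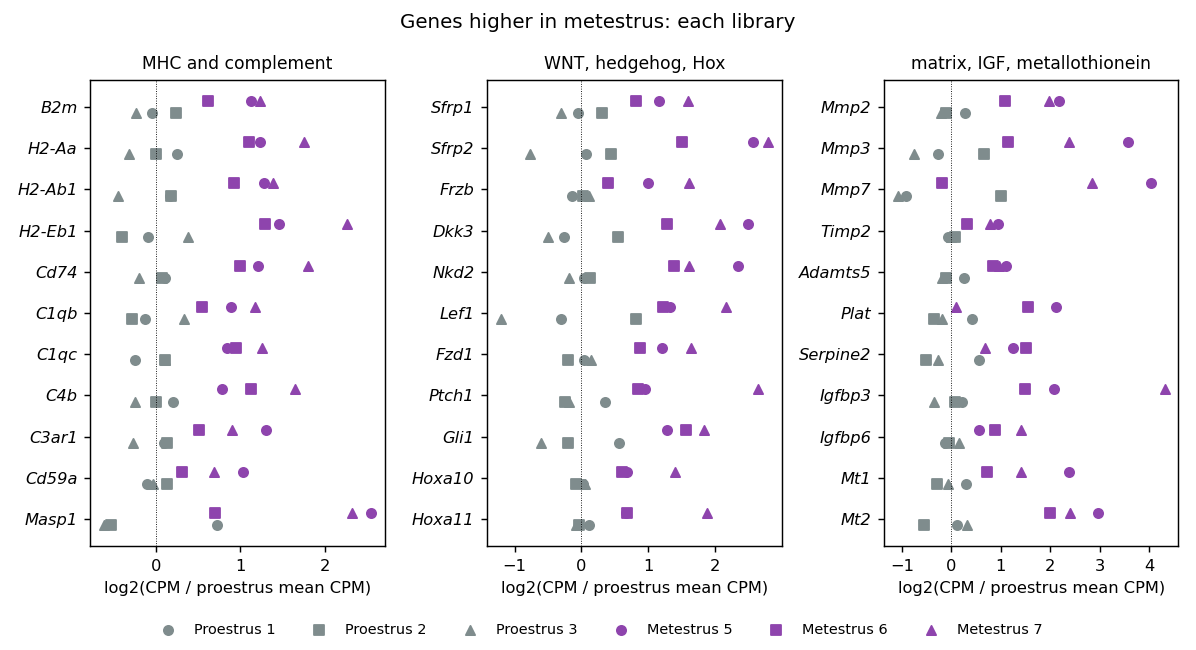
Points give the log2 ratio of the CPM of each library to the mean of the 3 proestrus libraries, for 33 genes higher in metestrus (proestrus grey, metestrus purple, symbols by replicate). Masp1, Mmp7 and Plat have a metestrus point at or left of a proestrus point, and the other genes drawn do not.

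Matrix proteases and inhibitors rose in 7 of 29 tested and fell in 0, with a median log2 fold change of 0.47. Among metalloproteases, Mmp2 has been described above. Mmp3, the stromelysin, measured 2.85, 5.39 and 2.03 CPM in proestrus and 41, 7.58 and 17.9 CPM in metestrus (log2 fold change 2.7, SE 0.66, edgeR adjusted p = 0.0364), and 1.88 on the log2 scale without metestrus replicate 5. Mmp7, the epithelial matrilysin, measured 1.14, 4.31 and 1.02 CPM and 35.3, 1.89 and 15.5 CPM (log2 fold change 3.03, SE 0.77, edgeR adjusted p = 0.0425), with metestrus replicate 6 inside the proestrus range. Its log2 fold change was 2.00 without metestrus replicate 5 and 3.99 without proestrus replicate 2. Adamts5, an aggrecanase, measured 33.6, 26.4 and 24.9 CPM and 61.2, 51.1 and 54.8 CPM (log2 fold change 0.98, SE 0.17, edgeR adjusted p = 0.0109), and Timp2, an inhibitor, had a log2 fold change of 0.7 (edgeR adjusted p = 0.0252). Of the plasminogen system, Plat, the tissue activator, measured 46.8, 27.5 and 31 CPM and 152, 102 and 37.6 CPM (log2 fold change 1.48, SE 0.37, edgeR adjusted p = 0.0397), where metestrus replicate 7 lay inside the proestrus range. Serpine2, which inhibits such activators, measured 64.5, 30.7 and 36.5 CPM and 104, 125 and 70.4 CPM (log2 fold change 1.19, SE 0.27, edgeR adjusted p = 0.0287). Mmp2 held, and 3, 1 and 1 of the 7 calls were left without proestrus replicates 1, 2 and 3, 3, 7 and 4 without metestrus replicates 5, 6 and 7, and 1 with the 6 samples alone.

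The collagen and matricellular lists gave 2 calls each, of 32 and 21 tested, beside 4.31% called of all tested genes. Col1a1, the main chain of type I collagen, measured 3144, 3247 and 3339 CPM in proestrus and 894, 3002 and 2023 CPM in metestrus (edgeR adjusted p = 0.188), and Col3a1 measured 2804, 2793 and 2887 CPM and 947, 3671 and 2686 CPM (edgeR adjusted p = 0.762), with metestrus replicate 5 the lowest in both. Of 32 tested collagen genes, Col18a1 of basement membranes rose (0.76) and Plod2, a lysyl hydroxylase, fell (-1.03), with edgeR adjusted p of 0.0327 and 0.0376; neither was left without any 1 of the proestrus libraries or metestrus replicate 7. Among 21 matricellular genes, Tgfbi (ENSMUSG00000035493, chromosome 13, 56609523 to 56639562) measured 54.8, 38.3 and 37 CPM and 101, 217 and 222 CPM (log2 fold change 2.05, SE 0.28, edgeR adjusted p = 0.00378) and held. Sparcl1 measured 589, 604 and 599 CPM and 2170, 1021 and 1377 CPM (log2 fold change 1.35, SE 0.21, edgeR adjusted p = 0.00744), and was called without each single library. Neither of these 2 genes overlapped between the stages. Of the 21 matricellular genes, 16 had a fitted value above 0 and 11 an unadjusted p under 0.05 in edgeR. In every metestrus library 6 lay above proestrus and 0 below. The median log2 fold change was 0.52, and 0.19 with a mean of at least 50 counts. The summed level overlapped, at 4069 to 4468 CPM in proestrus and 4271 to 5587 CPM in metestrus.

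Growth factor genes moved in part. In the IGF axis 5 of 19 tested rose and 1 fell. Igfbp3, which binds insulin-like growth factors (ENSMUSG00000020427, chromosome 11, 7206086 to 7213923), measured 29.1, 26.4 and 19.8 CPM in proestrus and 105, 70.7 and 502 CPM in metestrus (log2 fold change 3.17, SE 0.63, edgeR adjusted p = 0.0162), and 1.83 on the log2 scale without metestrus replicate 7. Igf1r, the receptor, measured 56.5, 58.2 and 66.5 CPM and 121, 74.5 and 167 CPM (log2 fold change 1.00, SE 0.23, edgeR adjusted p = 0.0281), and Igfbp6 and Htra3 had log2 fold changes of 0.99 and 1.28. Igf1 itself, a ligand that estrogen induces in the stroma, ran from 194 to 739 CPM over the 6 libraries with overlapping stages (edgeR adjusted p = 0.895). Stc2, a stanniocalcin, fell (-0.91, edgeR adjusted p = 0.0322). None of these 6 calls was left without any 1 of the proestrus libraries, and 5, 6 and 2 were left without metestrus replicates 5, 6 and 7. Of 34 TGF-beta and BMP genes, Nbl1, Id2 (0.71) and Id3 (1.15) rose and none fell; Id2 and Id3 are targets of BMP signals. Of 15 EGF family genes Egfr rose (0.92, edgeR adjusted p = 0.04797) and Dusp6, a feedback phosphatase of ERK, fell from 31.9, 31.8 and 37 CPM to 12.4, 17 and 16.7 CPM (log2 fold change -1.13, SE 0.19, edgeR adjusted p = 0.00959). Dusp6 was called without each single library, whereas Id2 and Id3 were not called without proestrus replicates 2 or 3 or metestrus replicate 7. Without estrus replicate 5, metestrus replicate 5 or diestrus replicates 3 or 5, 2 of the 3 TGF-beta and BMP calls were left. Of the fits with 1 library left out, Egfr was called only without metestrus replicates 5 or 6.

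Antioxidant and metal-binding genes included 5 that rose and 2 that fell of 35 tested. The metallothioneins Mt1 and Mt2 bind zinc and copper. Mt2 (ENSMUSG00000031762, chromosome 8, 94172664 to 94173568) measured 18.8, 11.9 and 21.8 CPM in proestrus and 137, 70.1 and 92.4 CPM in metestrus (log2 fold change 2.51, SE 0.36, edgeR adjusted p = 0.00509), and held, and Mt1 measured 86.1, 57.1 and 67.5 CPM and 367, 116 and 187 CPM (log2 fold change 1.67, SE 0.36, edgeR adjusted p = 0.0218). Both were highest in metestrus replicate 5 and lay apart from proestrus. Gstm1, a glutathione transferase, measured 87.3, 55.5 and 58.4 CPM and 189, 153 and 234 CPM (log2 fold change 1.52, SE 0.24, edgeR adjusted p = 0.00677) and held, although 32.4% of its 31-base stretches occur in another gene. Gpx3, a secreted peroxidase, had a log2 fold change of 1.41 (edgeR adjusted p = 0.03201) with overlapping values, and Gstm5 of 1.09. Mgst3 (-1.25) and the thioredoxin reductase Txnrd1 (-0.72) fell, with edgeR adjusted p of 0.00631 and 0.0412. Of the 7 calls 3 were left without any 1 of the proestrus libraries, and 6, 6 and 4 without metestrus replicates 5, 6 and 7. Ass1, which makes argininosuccinate for arginine synthesis, fell from 36.5, 38.8 and 23.8 CPM to 10.4, 8.84 and 11.3 CPM (log2 fold change -1.69, SE 0.27, edgeR adjusted p = 0.00744) and held, with 35.5% of its 31-base stretches shared.

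Of 27 tested smooth muscle contractile genes 0 were called in edgeR, 7 had an unadjusted p under 0.05, and 2 were called by DESeq2 and 0 by limma-voom, with a median log2 fold change of 0.12. Of 16 contraction receptors and connexins 3 rose and 1 fell. Oxtr, the oxytocin receptor, fell from 65.6, 39.4 and 98 CPM in proestrus to 18.2, 30.9 and 16.7 CPM in metestrus (log2 fold change -1.63, SE 0.34, edgeR adjusted p = 0.0193). Gjc1, a connexin, rose from 20, 15.6 and 19.3 CPM to 55.5, 39.8 and 41.1 CPM (log2 fold change 1.32, SE 0.24, edgeR adjusted p = 0.0118), and Pde5a, which breaks down cyclic GMP, from 55.3, 48 and 52.3 CPM to 254, 97.8 and 181 CPM (log2 fold change 1.78, SE 0.27, edgeR adjusted p = 0.00631). Prkg1, the kinase that cyclic GMP activates, had a log2 fold change of 1.11 (edgeR adjusted p = 0.0402). No stage overlapped in these 4 genes, and 2 of the 4 calls were left without any 1 of the proestrus libraries and 3, 4 and 2 without metestrus replicates 5, 6 and 7. Among 25 genes of fluid and ion transport, Ano1 held and Aqp1, a water channel of vessels, rose from 5.13, 3.77 and 4.57 CPM to 16.1, 14.5 and 16.7 CPM (log2 fold change 1.8, SE 0.34, edgeR adjusted p = 0.0128). Slc4a4, a bicarbonate cotransporter, had a log2 fold change of 1.69 with overlap, and Car2, a carbonic anhydrase, fell from 704, 810.2 and 609.5 CPM to 286, 343 and 75.7 CPM (log2 fold change -1.59, SE 0.40, edgeR adjusted p = 0.03995). Of these 4 calls 2, 1 and 1 were left without proestrus replicates 1, 2 and 3 and 3 without metestrus replicates 5 or 7. In every metestrus library 5 of the 25 lay above proestrus and 7 below, and the median log2 fold change was 0.14. The summed level of the fluid and ion transport list was lower in metestrus, at 1330 to 1768 CPM against 1953 to 2784 CPM in proestrus, without overlap.

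Proliferation genes were not called as a group, and the metestrus libraries differed among themselves. Of 61 tested genes of mitosis 1 fell and 0 rose, although 60 had a fitted value below 0 and the median log2 fold change was -0.76. Their summed level was 2160, 1458 and 2452 CPM in proestrus replicates 1, 2 and 3 and 491, 2445 and 1009 CPM in metestrus replicates 5, 6 and 7. Metestrus replicate 6 thus lay within the proestrus range and the other 2 lay below it. Mki67, expressed in cycling cells, measured 99.8, 65.8 and 122 CPM and 3.11, 109 and 42.3 CPM (edgeR adjusted p = 0.415), and Top2a, the mitotic topoisomerase, 152, 106 and 183 CPM and 11.9, 171 and 72.7 CPM (edgeR adjusted p = 0.426). The gene called was Mad2l1, a spindle checkpoint protein, with 39.4, 33.4 and 49.7 CPM and 7.78, 24.6 and 8.35 CPM (log2 fold change -1.61, SE 0.37, edgeR adjusted p = 0.0297). Without metestrus replicate 6, 35 of the mitosis genes were called lower, their median log2 fold change was -1.97 and that of Mad2l1 was -2.33. Without metestrus replicate 5 the median was -0.33 and no gene of the list was called. Of 46 DNA replication genes 0 were called by edgeR with all libraries (12 at an unadjusted p under 0.05, 0 by DESeq2 and 1 by limma-voom) and 15 without metestrus replicate 6. Pcna, the replication clamp, measured 104, 110.0 and 117 CPM and 59.1, 101 and 66.8 CPM (edgeR adjusted p = 0.0893), and Mcm5, of the replicative helicase, 34.2, 35 and 41.1 CPM and 8.82, 29.7 and 14.9 CPM (edgeR adjusted p = 0.0696). Cdkn1c, an inhibitor of the cell cycle, rose from 27.4, 43.1 and 27.9 CPM to 191, 53 and 66.8 CPM (log2 fold change 1.67, SE 0.40, edgeR adjusted p = 0.0341), but its log2 fold change was 0.87 without metestrus replicate 5. Of the fits with 1 library left out, it was called only without metestrus replicates 6 or 7 or diestrus replicates 4 or 5. It was not called with limma-voom, with the 6 samples alone or with counts rebuilt from TPM.

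**Figure D5:**
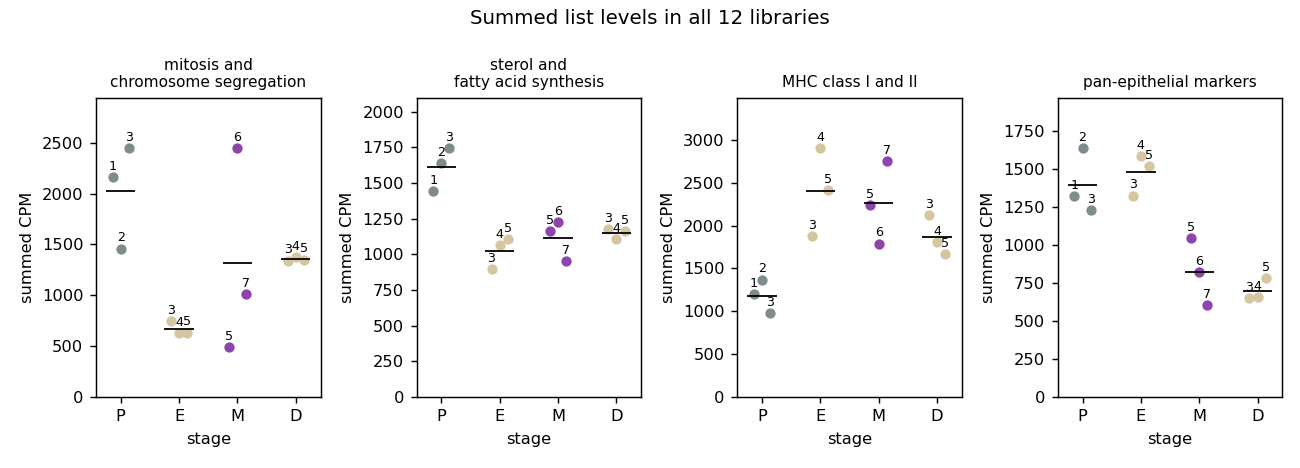
Each point is the summed CPM of a gene list in 1 of the 12 libraries, numbered by replicate, and the line is the mean of the stage (P proestrus, E estrus, M metestrus, D diestrus). Metestrus replicate 6, at 2445 CPM, lies within proestrus for mitosis genes. The metestrus libraries lie outside the proestrus range for sterol synthesis, MHC genes and pan-epithelial markers.

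Of 75 tested genes of oxidative phosphorylation, 3 were called lower and 0 higher, beside 1.82% of all tested genes called lower. The median log2 fold change was -0.24. Of the 75, 37 lay below proestrus in every metestrus library, beside 11.8% of all tested genes. Cyc1, of complex III, measured 156, 176 and 169.5 CPM in proestrus and 116, 106 and 94.8 CPM in metestrus (log2 fold change -0.66, SE 0.12, edgeR adjusted p = 0.0119). Ndufa11, of complex I, and Atp5g3, of the ATP synthase, had log2 fold changes of -0.84 and -0.45 (edgeR adjusted p = 0.0287 and 0.0489). Summed over the list, levels were 15750 to 15960 CPM in proestrus and 12640 to 14490 CPM in metestrus. Of the 3 calls 1, 0 and 0 were left without proestrus replicates 1, 2 and 3 and 2, 3 and 1 without metestrus replicates 5, 6 and 7, and 9 genes of the list were called without replicate 6. Cytosolic ribosomal proteins gave 0 calls of 81 in edgeR with a median of 0.17 (2 at an unadjusted p under 0.05, 0 by DESeq2 and 0 by limma-voom). Their summed level was 96190 to 108600 CPM in proestrus and 92710 to 152700 CPM in metestrus. Their median was -0.03 without metestrus replicate 7 and 0.31 without metestrus replicate 5. The endoplasmic reticulum list gave 0 of 40 in edgeR with a median of -0.17 (10 at an unadjusted p under 0.05, 1 by DESeq2 and 0 by limma-voom). In hypoxia and glycolysis, Ndrg1 (1.74) and Bnip3 (1.25) rose and Hif1a (-0.57) fell among 34 tested. The log2 fold change of Ndrg1 was 0.89 without metestrus replicate 7, and 0, 0 and 1 of these 3 calls were left without proestrus replicates 1, 2 and 3 and 2, 3 and 0 without metestrus replicates 5, 6 and 7.

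Several further lists gave 1 to 3 calls each. Among 15 tested secreted defence proteins of the epithelium, Bpifb5, a lipid-binding protein, rose from 2.28, 3.23 and 2.03 CPM in proestrus to 14.5, 27.8 and 8.94 CPM in metestrus (log2 fold change 2.72, SE 0.68, edgeR adjusted p = 0.0402) without overlap, beside Lyz2, and Muc1 fell; 0 of these 3 calls were left without any 1 of the proestrus libraries. Of 10 cornified envelope genes 2 fell, Sprr2g and Calml3, a calmodulin-like protein of epithelia, which measured 10.3, 5.93 and 8.12 CPM and 0, 2.52 and 0 CPM (log2 fold change -3.26, SE 0.82, edgeR adjusted p = 0.0482). The log2 fold change of Calml3 was -2.65 without metestrus replicate 5 and -6.93 without replicate 6, where 0 counts were left in metestrus. In the prostaglandin pathway Cbr1, a carbonyl reductase, rose (0.62, edgeR adjusted p = 0.0442) and Cbr2 fell among 21 tested, and 1, 0 and 1 of the 2 calls were left without proestrus replicates 1, 2 and 3. The prostaglandin list summed to 1447 to 1762 CPM in proestrus and 961 to 1084 CPM in metestrus, without overlap. Its median log2 fold change was 0.05, with 4 members above and 4 below proestrus in every metestrus library. Cytokine receptors Il6ra (1.02) and Lepr (1.34) rose among 17 genes of the LIF and STAT3 list (edgeR adjusted p = 0.0498 and 0.0236), and neither was called without any 1 of the proestrus libraries or metestrus replicate 7. The matrix protein Fbln2 fell (-0.76, edgeR adjusted p = 0.0155) among 20 elastic fibre genes and the proteoglycan Prelp rose (1.34, edgeR adjusted p = 0.0442) among 18 of its list. Neither was called without proestrus replicates 2 or 3 or metestrus replicate 7.

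Time of day is not in the labels, so the clock genes were looked at. Of 18 tested, 2 rose, the nuclear receptor Rora (0.94, edgeR adjusted p = 0.0193) and the deubiquitinase Usp2 (1.69, edgeR adjusted p = 0.0102), and 0 fell. Usp2 measured 28, 16.2 and 13.2 CPM in proestrus and 63.3, 43.6 and 76.3 CPM in metestrus, without overlap. Per1 measured 10.3, 8.09 and 4.57 CPM and 7.78, 9.47 and 15.5 CPM and Dbp 36.5, 17.8 and 12.7 CPM and 23.3, 20.2 and 11.9 CPM, with overlapping stages (edgeR adjusted p = 0.523 and 0.8003). Both calls were left without proestrus replicate 1, 0 without replicates 2 or 3, and 1 without metestrus replicate 7. Usp2 and Dbp overlap another gene on the opposite strand.

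Markers of each layer of the uterus were present. Over these 6 libraries, Epcam ran from 156 to 425 CPM, the stromal proteoglycan Dcn from 2303 to 3651, the myosin Myh11 of smooth muscle from 624 to 1375, and Cdh5 of endothelium from 30.2 to 83.5. Pdgfra, a receptor of stromal fibroblasts, rose from 55.3, 43.1 and 40.1 CPM to 92.3, 84.6 and 101 CPM (log2 fold change 1.01, SE 0.15, edgeR adjusted p = 0.00509). Of 10 tested stromal fibroblast markers 2 rose, Pdgfra and Hoxa11, 0 fell and 3 had a fitted value below 0. Their summed level overlapped, at 9629 to 9759 CPM in proestrus and 5553 to 11290 CPM in metestrus. Of the 2 calls 1 was left without any 1 of the proestrus libraries and 0 with the 6 samples alone. Genes of other tissues were low: the summed ovary list was 16.6 to 29.7 CPM, the skeletal muscle list 39.4 to 117 CPM and the adipocyte list 113 to 282 CPM. Keratins of stratified epithelium were at or near 0, with Krt5 at 0 to 0.57 CPM and Krt14 at 0 in all 6. The eosinophil granule genes Epx and Prg2 were at 0 in all 6 libraries. In metestrus replicate 6, 304 CPM of the ciliated oviduct list was found, against 57.6 to 145 CPM in the other 5 libraries.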

How the data were processed

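Whole-uterus RNA was profiled by 3' TagSeq, per the labels' protocols, from 100 ng of RNA with libraries of 355 to 550 bp, and no molecular identifiers are described, so counting floors cover counting error only. The authors deposited estimated counts and TPM per transcript, per the file headers, and the submitters' processing notes name FastQC, kallisto and DESeq2. The transcript set, build, options and strand are not given in the sources used here. Of 119414 transcripts 116640 were matched to GENCODE M21 (GRCm38), and estimated counts were summed over 35896 genes and rounded. The deposited TPM entered only 1 alternative.

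Genes were filtered with filterByExpr by stage, scaled with TMM and fitted in edgeR 4.0.16 (R 4.3.3) by quasi-likelihood over all 12 samples with 1 coefficient per stage. The two-sided contrast was metestrus minus proestrus, with Benjamini-Hochberg adjustment over 12052 genes. A group at or under 3 counts in each library was given a lower bound on the fold. Alternatives were library totals, RLE factors, no filter, a mean of at least 50 counts, DESeq2 1.42.0, limma-voom 3.58.1, the 6 samples alone, counts rebuilt from TPM, and each library left out. Shared 31-base stretches were counted over the last 1000 bases of transcripts.

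The comparison, the 62 gene lists and the genes named were chosen with earlier results of these data known. Named were, among protein-coding genes, the 12 largest rises and 12 largest falls among called genes without overlap and with at least 20 CPM in the higher stage, the 10 smallest p, and in each list up to 4 called members with the smallest p or, with none called, up to 2 tested members with the highest level. Other genes were named to complete the count of a list, as markers, or after their values were seen. Some genes that these rules pick, or that the counts of a list include, are not reported here.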

Additional observations from a re-analysis of the deposited data

How the results depend on the processing

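The main count was 519 genes, 300 higher and 219 lower. Without the low-count filter 935 were called (565 higher, 370 lower), with counts rebuilt from TPM 156 (90 higher, 66 lower), and with the 6 samples alone 42 (16 higher, 26 lower). Limma-voom called 378, 168 higher and 210 lower, and DESeq2 called 693, of which 477 were among the 519. Leaving out 1 library in turn gave between 78 calls (without proestrus replicate 2) and 1080 (without metestrus replicate 6), between 41 and 611 higher and between 37 and 469 lower. Fits with 2 samples of a stage took their spread from all stages. Of the 1080 calls without metestrus replicate 6, 473 were among the 519, as were 77 of the 78. The cause of these moves was not tested. Library totals, RLE factors and a mean of at least 50 counts gave 440, 507 and 414 calls, within 1.5 times the main count.

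Of 166 called genes named in the text, 24 kept an adjusted p under 0.05 in all 20 alternatives in which they were tested, 140 lost it in at least 1 setting other than a left-out library, 128 lost it without at least 1 library, and 0 changed direction. Without proestrus replicate 2, 121 of them were not called, and without metestrus replicate 7, 86. The fitted fold of 30 moved by over 1.5 times when 1 library was left out. Other scalings moved the median log2 fold change over all genes by less than 0.05. No paired analysis was possible because metestrus carries the numbers 5 to 7 and proestrus the numbers 1 to 3, so that the stages share none. The depth limits genes near the floor of 3 counts, 1.52 to 1.89 CPM in these libraries.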

Other observations

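Several genes that handle cholesterol rose in metestrus; they were chosen after their values were seen, and no list of them was counted or tested. Abca1, a pump that passes cholesterol to apolipoproteins, measured 30.8, 15.1 and 15.2 CPM in proestrus replicates 1, 2 and 3 and 117, 37.9 and 104 CPM in metestrus replicates 5, 6 and 7 (log2 fold change 2.09, SE 0.38, edgeR adjusted p = 0.0115). Abcg1, a second exporter, measured 65, 53.4 and 62.4 CPM and 122, 88.4 and 129 CPM (log2 fold change 0.91, SE 0.22, edgeR adjusted p = 0.0335). Pltp, a phospholipid transfer protein that overlaps Ctsa on the opposite strand, measured 40.5, 45.3 and 33.5 CPM and 214, 85.2 and 176 CPM (log2 fold change 2.00, SE 0.31, edgeR adjusted p = 0.00631), and was called in every alternative. Soat1, which stores cholesterol as esters, measured 39.4, 43.1 and 36.5 CPM and 93.9, 58.1 and 76.9 CPM (log2 fold change 0.95, SE 0.17, edgeR adjusted p = 0.0118), and Lipa, which frees it in lysosomes, had a log2 fold change of 1.02 (edgeR adjusted p = 0.0262). No metestrus value of these 5 genes overlapped with proestrus. The highest adjusted p over the alternatives was 0.0726 for Abca1 and Soat1, 0.135 for Abcg1 and 0.117 for Lipa, and each of the 4 was lost without proestrus replicate 2. Of the lysosomal enzymes, Ctsd measured 138, 198 and 159 CPM and 338, 292 and 450.1 CPM (log2 fold change 1.12, SE 0.21, edgeR adjusted p = 0.0124), with 18.7% of its 31-base stretches shared with another gene.

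Some vessel and signalling genes were called as well. Of 34 tested endothelial genes 2 rose, beside 2.49% of all tested genes called higher. These were Vegfb (1.15, edgeR adjusted p = 0.01798) and Angptl2 (1.33, edgeR adjusted p = 0.0334). Of the 34, 32 had a fitted value above 0 and the median log2 fold change was 0.61. Without proestrus replicates 1, 2 and 3, 0, 0 and 1 of the 2 calls were left, and 0 with the 6 samples alone. Ramp1 and Calcrl, the parts of the receptor for calcitonin gene-related peptide, had log2 fold changes of 1.63 and 1.16 (edgeR adjusted p = 0.03201 and 0.0206). The Ramp1 call was lost without any 1 of the proestrus libraries, without estrus replicate 5 and without metestrus replicate 7. The Calcrl call was lost without proestrus replicates 2 or 3 or metestrus replicate 7. Txnip, a regulator of glucose uptake, measured 122, 152 and 121 CPM and 357, 170.4 and 454 CPM (log2 fold change 1.31, SE 0.27, edgeR adjusted p = 0.0172), with metestrus replicate 6 the nearest to proestrus, and was not called without any 1 of the proestrus libraries or metestrus replicate 7. Klf9, a Krüppel-like factor, measured 135, 153 and 121 CPM and 359, 204 and 414 CPM (log2 fold change 1.26, SE 0.21, edgeR adjusted p = 0.00959), and was called without each single library.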
